A study of Mus musculus with 48 samples.

Results

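The stretch of mouse chromosome 12 from Gm10432 to Serpina3n (mm10, chr12:100276609-104414330, by gene start) was chosen because earlier results on these mice showed genes in it that differed between *APOE*3 (E3) and *APOE*4 (E4) cortex. The APOE-TR table listed 54 genes there. Of these, 36 genes stood above the column minimum, which marks a gene without reads, in all 32 mice and are the members described here. A further 17 genes were at the minimum in 1 or more mice, and Serpina3n was left out by name. The members are 36 of the 15958 genes with a read in every APOE-TR mouse.

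RNA-seq was done on cerebral cortex of mice that breathed filtered air or nPM, the nano-sized fraction of urban particulate matter, for 5 hours a day on 3 days a week. The APOE-TR mice carry human *APOE* by targeted replacement of the mouse gene on a B6 background, homozygous for E3 or E4. They were 6 months old by the labels, were exposed for 15 weeks and fell into 8 groups of 4 mice by allele, sex and exposure. The C57BL/6J (B6) mice, with their own mouse Apoe, were 4 months old, were exposed for 8 weeks and fell into 4 groups of 4 mice by sex and exposure. The E3 and E4 mice are different lines, so the allele and anything else that differs between these lines cannot be told apart. Nothing states that the mice of a group came from separate litters, and in bulk tissue fewer cells of a type and less RNA per cell cannot be told apart.

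The members lie side by side but do different work. Ccdc88c is a scaffold of Wnt and G protein signalling, Chga is the chromogranin A of dense-core secretory granules, and the Ifi27 genes are induced by interferon. Slc24a4, a potassium-dependent sodium-calcium exchanger, and Rin3, an exchange factor for Rab5 on endosomes, are neighbours, and the matching human region has been associated with Alzheimer's disease. Toward the distal end lie the Serpina genes, a family of secreted protease inhibitors, most of which had few reads in cortex.

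A pair of libraries, both of E3 females on filtered air, stood apart from all other APOE-TR mice. The median absolute distance of a library from the 32-mouse median was 0.593 on the log2 scale in animal 61 and 0.464 in animal 6, against 0.294 or less in the other 30 libraries, among them 0.201 and 0.231 in the other E3 females on filtered air. The column of animal 6 is the one whose number is on no sample label, and it was placed in its group by the rest of its name. Reads recovered from the deposited values ran from 17.8 M to 22.3 M in APOE-TR females and from 22.4 M to 31.3 M in males, so that sex and depth cannot be told apart. B6 depths ran from 2.05 M to 24.4 M. Summed markers of cortical excitatory neurons, all 5 with reads in every mouse, ranged from 433 to 1170 CPM in E3 and from 795 to 1220 CPM in E4, and those of astrocytes, also 5 of 5, from 749 to 1430 and from 716 to 1310. Of these, 2 excitatory markers were higher in E4 over the 32 mice at 5% FDR, with a list median of 0.24, or -0.01 in males, and 3 astrocyte markers were lower, with a list median of -0.185, or -0.07 in males, where 1 passed. The choroid plexus markers Ttr and Kl, summed, ranged from 6.14 to 1440 CPM in E3 and from 13.7 to 1130 CPM in E4, with a median difference of 1.055 over the 32 mice and 1.56 in males, and neither passed. No marker of these lists was at 0 in any mouse, and the part of cell composition in the results was not tested.

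Because the contrast of E4 with E3 chose the members, their differences between the lines are given as a description with no test. Differences are on the log2(CPM + 0.5) scale after TMM rescaling, E4 minus E3 averaged over the 4 combinations of sex and exposure, with the standard error (SE). In the limma fit of all 32 mice, 8 members were higher and 3 lower in E4 at 5% FDR over all genes, or 11 of 36, beside 29.0% of all genes tested (14.9% higher and 14.1% lower). Without the 4 E3 females on filtered air, 6 members passed beside 2.18% of all genes, among them Gm10432, 9030617O03Rik, Ccdc88c, Chga and Ifi27. In the 16 males alone, 5 passed beside 1.72%, among them Gm10432, 9030617O03Rik, Ccdc88c and Chga. The median absolute difference over the members was 0.14 in the 32 mice and 0.078 in the 16 males, beside 0.114 and 0.05 over all genes.

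Mice of the lines were also compared by rank, as members in which every E4 mouse lay above, or below, every E3 mouse of the same sex and exposure. In females on filtered air 4 members were higher in E4 in this way (9030617O03Rik, Ccdc88c and Chga among them), beside 13.1% of all genes, and 2 were lower (Moap1 and AK010878), beside 16.7%. Among females on nPM 2 members were higher (Ccdc88c and Chga), beside 2.41%, and 2 were lower (Ifi27l2a and Ifi27), beside 3.55%. Among males on filtered air 4 members were higher (Gm10432, 9030617O03Rik and Chga among them), beside 1.49%, and none was lower, beside 2.07%. Among males on nPM 4 members were higher (Gm10432, 9030617O03Rik, Ccdc88c and Chga), beside 2.61%, and Trip11 was lower, beside 3.10%. In the same direction, 3 members were separate in 3 or more of the 4 combinations, beside 0.796% of all genes, and 3 in both male combinations, beside 0.965%.

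**Figure D1:**
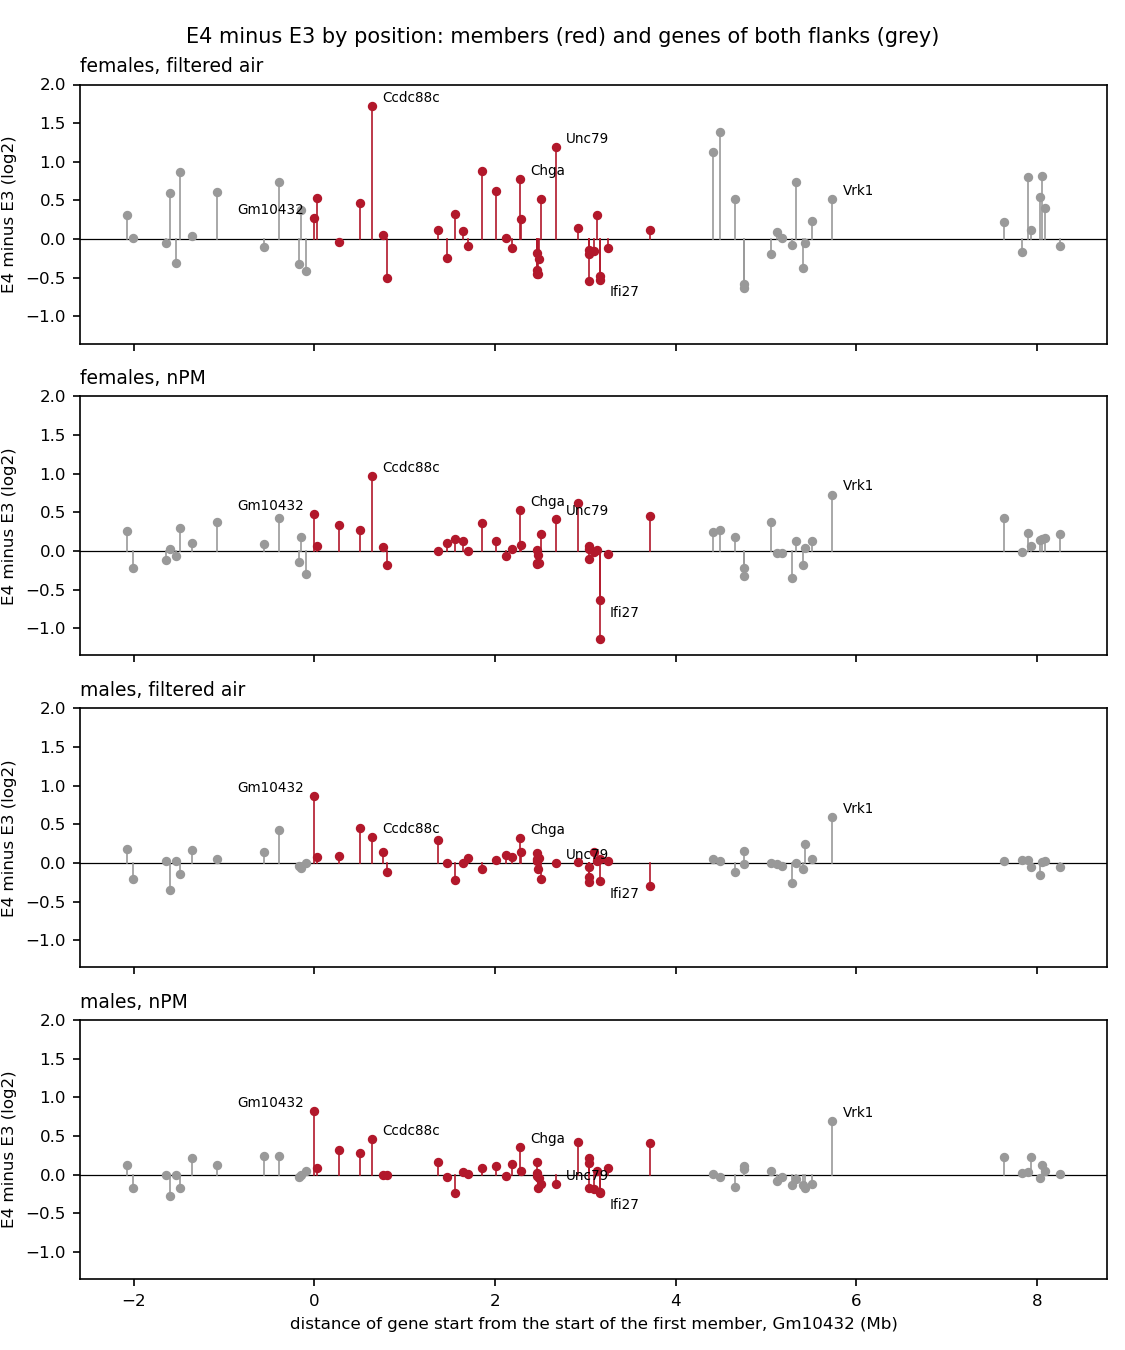
E4 minus E3 on the log2 scale (vertical axis) for each gene by the distance of its start from that of Gm10432 in Mb (horizontal axis), in 4 panels for the combinations of sex and exposure, with 35 members in red and genes of the flanks in grey. In both male panels most genes lie near 0 and Gm10432, Ccdc88c and Chga stand above it, as does Vrk1 in the distal flank, whereas in females on filtered air many genes inside and outside the segment lie far from 0.

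Ccdc88c (chr12:100912700-101028984, minus strand) had the largest average difference of the members, 0.87 (SE 0.18). In E3 females on filtered air it was at 1.83, 2.73, 10.8 and 12.8 CPM, and in E4 females at 13.9, 18.7, 19.2 and 20.6. The low pair of E3 mice were animals 61 and 6, the libraries that stood farthest apart. Among males on filtered air Ccdc88c was at 14.3, 14.4, 14.4 and 14.8 CPM in E3 and at 14.5, 17.99, 19.7 and 21.8 in E4. In males on nPM it was at 13.0, 15.6, 16.9 and 17.3 CPM in E3 and at 18.7, 20.3, 21.8 and 26.8 in E4. Here the lines did not overlap, whereas on filtered air the lowest E4 male lay among the E3 males. In females on nPM it was at 7.47, 12.2, 14.0 and 14.6 CPM in E3 and at 16.9, 22.2, 24.97 and 30.6 in E4, again without overlap. The difference was 0.40 (SE 0.085) in the 16 males and 1.34 (SE 0.32) in the 16 females.

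Gm10432 (chr12:100276609-100300909, plus strand), a gene model without an assigned function, is the first member. It overlaps Ttc7b on the opposite strand, and whether reads were counted by strand is not given in the sources used here. In males on filtered air it was at 1.15, 1.21, 1.30 and 1.71 CPM in E3 and at 2.64, 2.77, 2.78 and 3.06 in E4. In males on nPM it was at 1.11, 1.19, 1.39 and 1.56 CPM in E3 and at 2.31, 2.43, 2.91 and 3.21 in E4. The lines were separate in both male comparisons, with a difference of 0.84 (SE 0.081), the largest of the members in males. In females on filtered air it was at 1.76, 2.17, 2.27 and 4.37 CPM in E3 and at 2.75, 2.78, 3.01 and 3.43 in E4. In females on nPM it was at 1.39, 1.57, 2.05 and 2.39 CPM in E3 and at 1.93, 2.60, 3.18 and 3.28 in E4. The female lines overlapped in both, and the difference was 0.37 (SE 0.14).

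9030617O03Rik (chr12:100779123-100872611, plus strand; Dglucy in RefSeq), a mitochondrial D-glutamate cyclase, is the next member after Rps6ka5. E3 males on filtered air had 3.30, 3.95, 4.00 and 4.85 CPM of it and E4 males 5.52, 5.57, 5.62 and 5.73. In males on nPM it was at 4.20, 4.28, 4.52 and 4.52 CPM in E3 and at 4.95, 5.11, 5.31 and 6.29 in E4. Every E4 male lay above every E3 male under the same exposure. In females on filtered air it was at 3.91, 3.94, 3.96 and 4.25 CPM in E3 and at 5.21, 5.46, 5.51 and 5.82 in E4. In females on nPM it was at 3.74, 3.86, 4.18 and 4.93 CPM in E3 and at 3.46, 5.18, 5.92 and 6.03 in E4, where 1 E4 mouse was the lowest of all 8. The difference was nearly the same size in each sex, 0.36 (SE 0.066) in males and 0.36 (SE 0.099) in females.

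Chga (chr12:102554941-102565028, plus strand) was the only member whose lines did not overlap in all 4 combinations of sex and exposure, or 1 of 36 beside 0.282% of all genes. Males on filtered air had 57.1, 65.6, 73.6 and 73.7 CPM in E3 and 76.4, 83.7, 84.1 and 92.5 in E4. In males on nPM it was at 68.7, 70.3, 73.5 and 81.8 CPM in E3 and at 86.5, 88.2, 91.9 and 112 in E4. The gap between the lines in males was narrow beside the spread within them. In females on filtered air it was at 49.5, 56.5, 67.8 and 82.1 CPM in E3 and at 82.4, 91.6, 119.5 and 126.9 in E4. Females on nPM had 58.1, 78.0, 89.9 and 105.4 CPM in E3 and 110.3, 111.8, 119.4 and 120.2 in E4. The average difference was 0.50 (SE 0.080), and 0.34 (SE 0.064) in the 16 males. Per kb of exon Chga had the highest level of the members, 31.2 CPM per kb, and Tc2n the lowest, 0.036 CPM per kb.

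**Figure D2:**
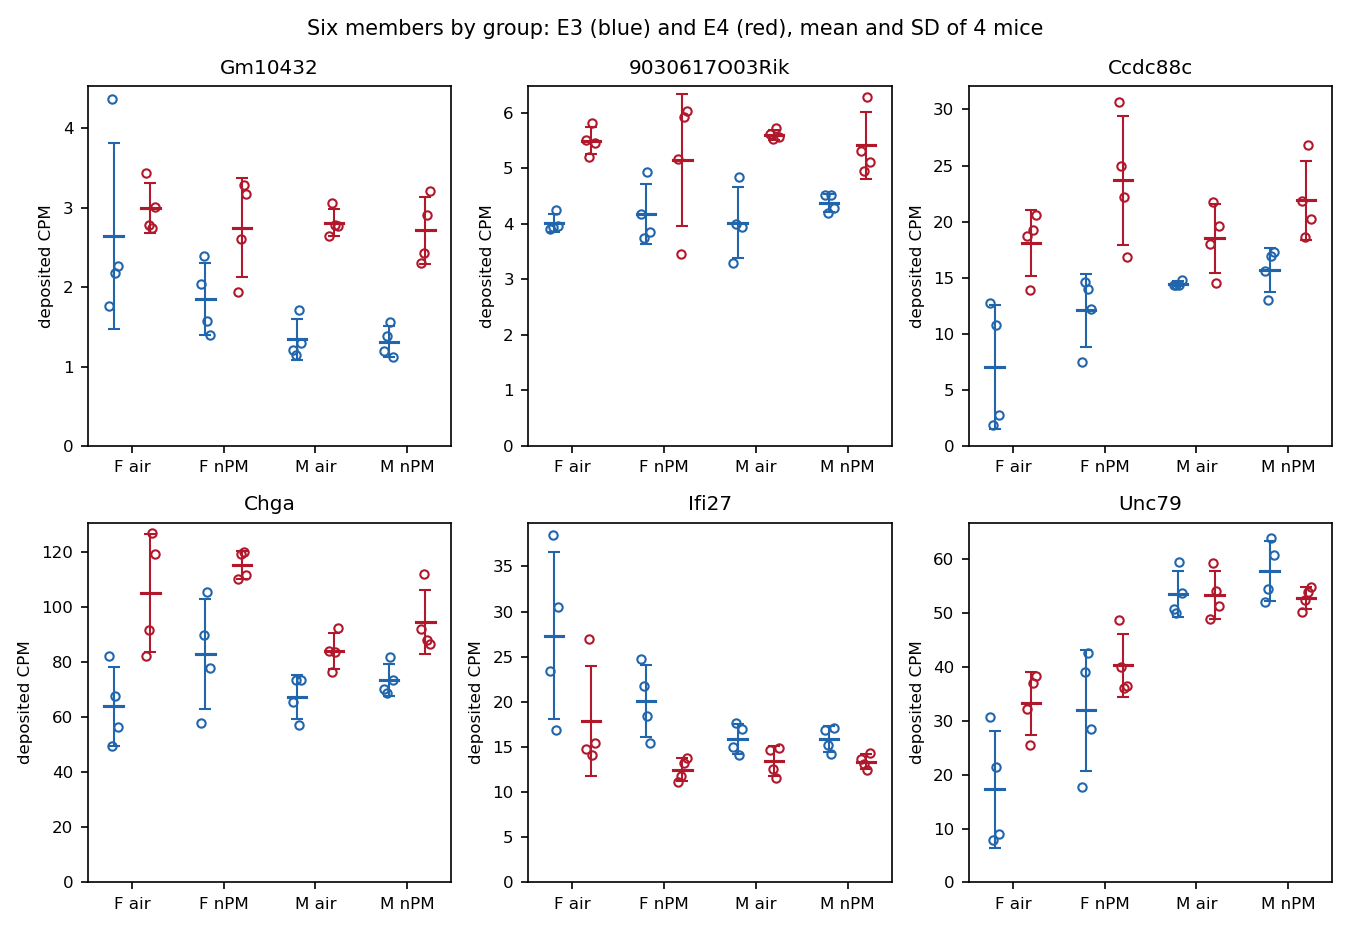
Deposited CPM (vertical axis, from 0) of 6 members in the 8 APOE-TR groups, with E3 in blue and E4 in red, each circle a mouse and each bar the mean with the SD of 4 mice. Chga lies higher in E4 in every pair of groups, and for Ccdc88c the E3 females on filtered air (F air) reach lowest, from 1.83 to 12.8 CPM, while E4 females on nPM range from 16.9 to 30.6 CPM.

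The Ifi27 genes went the other way. Ifi27 (chr12:103434189-103440246, plus strand) was lower in E4 by a log2 difference of -0.41 (SE 0.088). In females on nPM it was at 15.5, 18.4, 21.8 and 24.8 CPM in E3 and at 11.1, 11.8, 13.3 and 13.8 in E4, without overlap. In females on filtered air it was at 16.9, 23.5, 30.5 and 38.5 CPM in E3 and at 14.2, 14.8, 15.5 and 26.99 in E4. The exception there was E4 animal 21, which lay within the E3 range. In males on filtered air it was at 14.1, 15.0, 17.0 and 17.6 CPM in E3 and at 11.5, 12.5, 14.7 and 14.9 in E4. In males on nPM it was at 14.2, 15.2, 16.9 and 17.2 CPM in E3 and at 12.5, 13.1, 13.7 and 14.3 in E4. The male difference was -0.24 (SE 0.066) and the lines overlapped at 1 or 2 mice. Ifi27l2a, which overlaps Ifi27 on the opposite strand, had a difference of -0.45 (SE 0.21) at under 1 CPM in all males, and E4 animal 21 was also its highest E4 mouse, at 4.20 CPM.

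For Unc79, Slc24a4 and Rin3 the average difference was larger in females than in males. Unc79, a subunit of the NALCN sodium leak channel complex, differed by 0.37 (SE 0.14) over all mice, by 0.80 (SE 0.26) in females and by -0.06 (SE 0.051) in males. In E3 females on filtered air it was at 7.88, 8.91, 21.5 and 30.8 CPM and in E4 females at 25.5, 32.2, 37.0 and 38.3. The low pair of E3 mice were again animals 61 and 6, the libraries that stood farthest apart. Without the E3 females on filtered air Unc79 differed by 0.095 (SE 0.099). In males on filtered air it was at 50.1, 50.8, 53.8 and 59.5 CPM in E3 and at 48.9, 51.3, 54.1 and 59.3 in E4. The male lines thus covered nearly the same range on filtered air. On nPM, E3 males ranged from 52.1 to 63.9 CPM and E4 males from 50.1 to 54.8. Slc24a4 differed by 0.31 (SE 0.12) over all mice, by 0.00 (SE 0.086) in males and by 0.12 (SE 0.097) without the E3 females on filtered air. Rin3 differed by 0.23 (SE 0.094), by 0.075 (SE 0.087) in males and by 0.091 (SE 0.076) without the E3 females on filtered air. Prima1, which anchors acetylcholinesterase in the membrane, differed by 0.30 (SE 0.12), with 0.02 in males and 0.14 in females on filtered air and 0.42 in males and 0.62 in females on nPM. Gm29508, a gene model at under 1 CPM on average, differed by -0.21 (SE 0.098), with -0.54 in females and -0.19 in males on filtered air and 0.07 in females and -0.17 in males on nPM.

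**Figure D3:**
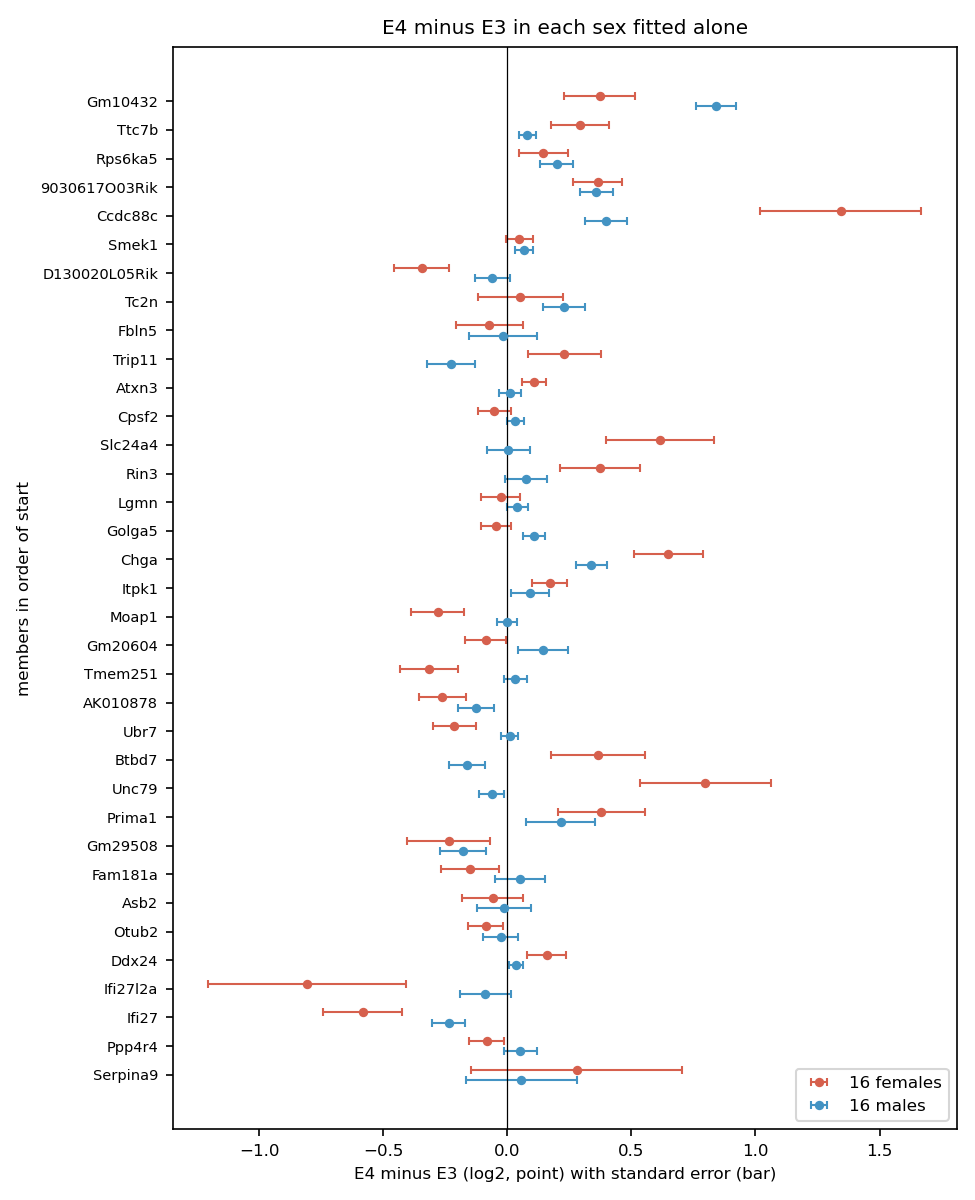
E4 minus E3 on the log2 scale with its standard error (horizontal axis) for 35 members in order of start (vertical axis), in the 16 females (red) and the 16 males (blue) fitted alone. The male values lie within 0.25 of 0 for 31 members and above it for Gm10432, 9030617O03Rik, Ccdc88c and Chga, and the female standard errors are wider for most members.

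By role, the 8 signalling members (kinases, phosphatase subunits and others) held 4 that were higher in E4 over the 32 mice and none that were lower, with a median of 0.155, beside 14.9% of all genes higher, and 2 of the 8 passed in the 16 males. Besides Ccdc88c these included Ttc7b, a subunit of the phosphatidylinositol 4-kinase complex, at 0.19 (SE 0.063), and Rps6ka5, the nuclear kinase MSK1, at 0.175 (SE 0.060), neither of which passed in the 16 males or without the E3 females on filtered air. Itpk1, an inositol phosphate kinase, was at 0.13 (SE 0.055), and the PP4 regulatory subunits Smek1 and Ppp4r4 were at 0.06 (SE 0.031) and -0.01 (SE 0.050). None of the 6 protein turnover genes passed, beside 29.0% of all genes in either direction, with values from -0.10 to 0.10. Among these Lgmn, the lysosomal asparaginyl endopeptidase, was at 0.01 (SE 0.044), and the deubiquitinase Atxn3 at 0.06 (SE 0.031). Of the 5 genes of Golgi, endosomes and granules only Chga passed, beside the same 29.0% of all genes. The golgin Trip11 was at 0.00 (SE 0.092), the smallest difference of the members, as the mean of 0.32 in females and -0.22 in males on filtered air and 0.15 and -0.24 on nPM.

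Of 3 genes of ion transport and synapse 1 passed, Unc79, and of 2 interferon-induced genes 1 passed, Ifi27. The share of all genes that passed in either direction was 29.0%, here and for the lists that follow. Neither Unc79 nor Ifi27 passed in the 16 males, and Unc79 did not pass without the E3 females on filtered air. Neither of the 2 RNA processing genes passed, namely Cpsf2, a subunit that cleaves the 3′ end of transcripts, at -0.01 (SE 0.035), and the helicase Ddx24 at 0.10 (SE 0.043). Among the 4 genes of matrix and other roles 9030617O03Rik passed, and Fbln5, an elastic fibre protein, was at -0.04 (SE 0.10). Serpina9, the last member and the only serine protease inhibitor among the members, was at 0.17 (SE 0.25), with 1.54 to 10.7 CPM in E3 and 1.44 to 14.5 CPM in E4. In no list was the share of members that passed tested against other genes, and the lists were written with results on these mice known.

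Genes on either side of the edges were compared with the members. Just outside the proximal edge Gm10433, a gene model, differed by -0.17 over all mice and by 0.02 in males. Just outside the distal edge Dicer1 and Clmn differed by 0.36 and 0.41 over all mice and by 0.03 and -0.01 in males. In flanks 4.14 Mb wide on each side, the median absolute difference in males was 0.118 over 14 proximal genes and 0.041 over 22 distal genes, beside 0.078 over the members. The male difference passed 0.25 in 5 of 36 members (13.9%), in 2 of 14 proximal genes (14.3%) and in 1 of 22 distal genes (4.55%), beside 3.74% of all genes. Vrk1 in the distal flank was at 0.64 (SE 0.074) in males, and Tdp1 and Ptpn21 in the proximal flank were at 0.33 (SE 0.064) and -0.31 (SE 0.051). The filter on reads also ran close to some genes. Tc2n, a member, had 1 read in its lowest mouse, and Serpina3g, no member, had reads in 31 of 32 mice with means of 6.12 reads in E3 and 9 in E4.

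The promoters of 28 members are in the RefSeq table (GRCm38.p6, the build of the files). The 250 bases before the start are shown for the members that differed in males and have an entry, and for Tmem251, whose window reaches into that of its neighbour Moap1. Capitals mark matches on either strand to the cAMP response element TGACGTCA, the GC box GGGCGG or the TATA box TATAAA.
9030617O03Rik, chr12:100778807-100779056, plus strand: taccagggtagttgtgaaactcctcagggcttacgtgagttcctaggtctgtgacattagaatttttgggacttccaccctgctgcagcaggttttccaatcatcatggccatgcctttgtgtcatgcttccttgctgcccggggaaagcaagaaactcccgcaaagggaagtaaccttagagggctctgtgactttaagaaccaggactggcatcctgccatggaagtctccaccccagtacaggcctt
Chga, chr12:102554691-102554940, plus strand: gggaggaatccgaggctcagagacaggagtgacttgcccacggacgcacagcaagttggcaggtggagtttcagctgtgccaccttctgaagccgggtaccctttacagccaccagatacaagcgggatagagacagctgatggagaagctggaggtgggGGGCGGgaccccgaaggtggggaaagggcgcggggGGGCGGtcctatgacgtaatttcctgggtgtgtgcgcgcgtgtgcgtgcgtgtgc
Tmem251, chr12:102743469-102743718, plus strand: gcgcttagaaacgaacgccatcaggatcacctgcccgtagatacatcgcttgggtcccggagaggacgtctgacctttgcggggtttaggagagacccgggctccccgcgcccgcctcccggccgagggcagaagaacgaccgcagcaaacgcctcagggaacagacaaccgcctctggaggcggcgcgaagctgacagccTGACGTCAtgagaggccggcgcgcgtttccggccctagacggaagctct
The 9030617O03Rik window held none of these motifs and the Chga window held 2 GC boxes. At least 1 GC box was found in 18 of the 28 member promoters and in 32.7% of 32851 promoters. The 32851 promoters were not filtered by reads in cortex, as the members were. The sets are thus unlike, here and for the other motifs. The exact letters of the cAMP response element were found in Moap1 and Tmem251, at the same bases (chr12:102743670-102743677) between the divergent starts, and in 1.55% of all promoters. Near matches were not searched or marked, such as tgacgtaa in the Chga window. The TATA box was found in 1 member, D130020L05Rik, and in 12.4% of all promoters. These are matches of letters, and no binding was measured.

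The exposure to nPM was tested on the members, since the rule did not use it. No member passed 5% FDR in limma, and no gene of 15958 did. At an unadjusted p under 0.05 there were 11 members, 7 higher and 4 lower with nPM, beside 28.5% of all genes. Slc24a4 had the smallest p, with a difference of 0.38 (SE 0.12, limma adjusted p = 0.146). Its E3 females on filtered air were at 2.45, 2.77, 5.57 and 8.25 CPM and those on nPM at 5.52, 7.19, 9.65 and 10.4, whereas E3 males were at 11.9, 14.1, 16.1 and 16.5 CPM and at 12.7, 15.2, 15.4 and 17.6. The E3 male groups overlapped fully and the E3 female groups in part. Without the E3 females on filtered air, the Slc24a4 difference was 0.22 (SE 0.097, limma adjusted p = 0.966). There 2 members reached an unadjusted p under 0.05, beside 480 of the 16146 genes tested, and no gene passed 5% FDR. edgeR and DESeq2 on the recovered reads also called no member, and their calls over all genes are not given here. Library weights, which lower the influence of spread-out libraries, gave 9 calls beside 22.4% of all genes, and leaving out E3 female 52, a control, gave 12 calls beside 28.8%.

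Whether nPM acted differently in the lines was tested in the same fit. No member passed 5% FDR for the allele by nPM term, and no gene of 15958 did. edgeR and DESeq2 on the recovered reads also called no member, and their calls over all genes are not given here. Among the members 2 had an unadjusted p under 0.05, beside 10.6% of all genes. Of these, Rps6ka5 was at 0.30 (SE 0.12, limma adjusted p = 0.442).

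Sex was tested likewise. In limma 22 members passed 5% FDR, 11 higher and 11 lower in females, beside 62.8% of all genes (30.9% higher and 31.9% lower), a share of the members, 61.1%, close to that of all genes. Gm20604 rose most in females, by 1.21 (SE 0.067, limma adjusted p = 9.04e-14). It was at 17.5 ± 2.1 and 14.6 ± 0.99 CPM in E3 and E4 females on filtered air and at 6.28 ± 0.80 and 6.91 ± 1.3 CPM in the matching males (SD, n = 4). Gm20604 overlaps Moap1 and AK010878 on the same strand and Tmem251 on the other, so reads of these genes cannot be fully told apart. Moap1, which binds the apoptosis protein BAX, fell in females by 0.14 (SE 0.058, limma adjusted p = 0.0429), while AK010878 rose by 0.45 (SE 0.060, limma adjusted p = 3.87e-07) and Tmem251, needed for sorting of lysosomal enzymes, rose by 0.35 (SE 0.061, limma adjusted p = 2.23e-05).

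Among the members lower in females were Slc24a4 at -0.995 (SE 0.12, limma adjusted p = 1.25e-07), Unc79 at -0.97 (SE 0.14, limma adjusted p = 1.68e-06) and Trip11 at -0.84 (SE 0.092, limma adjusted p = 2.12e-08). Btbd7 was at -0.74 (SE 0.11, limma adjusted p = 1.24e-06) and Ddx24 at -0.29 (SE 0.043, limma adjusted p = 2.04e-06). Fam181a was higher in females by 0.72 (SE 0.079, limma adjusted p = 1.86e-08) and D130020L05Rik, which overlaps Smek1 on the opposite strand, by 0.51 (SE 0.064, limma adjusted p = 1.6e-07). Without the E3 females on filtered air 18 members passed, 9 each way, beside 8070 of the 16146 genes tested, and Unc79 was at -0.66 (SE 0.099, limma adjusted p = 5.13e-06). The members that rose in females were short genes, with a median span of 9.81 kb, and those that fell were long, at 93.8 kb. The same held over all genes that rose (10.9 kb) and fell (44.7 kb) in females, and depth differed with sex in the same libraries.

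**Figure D4:**
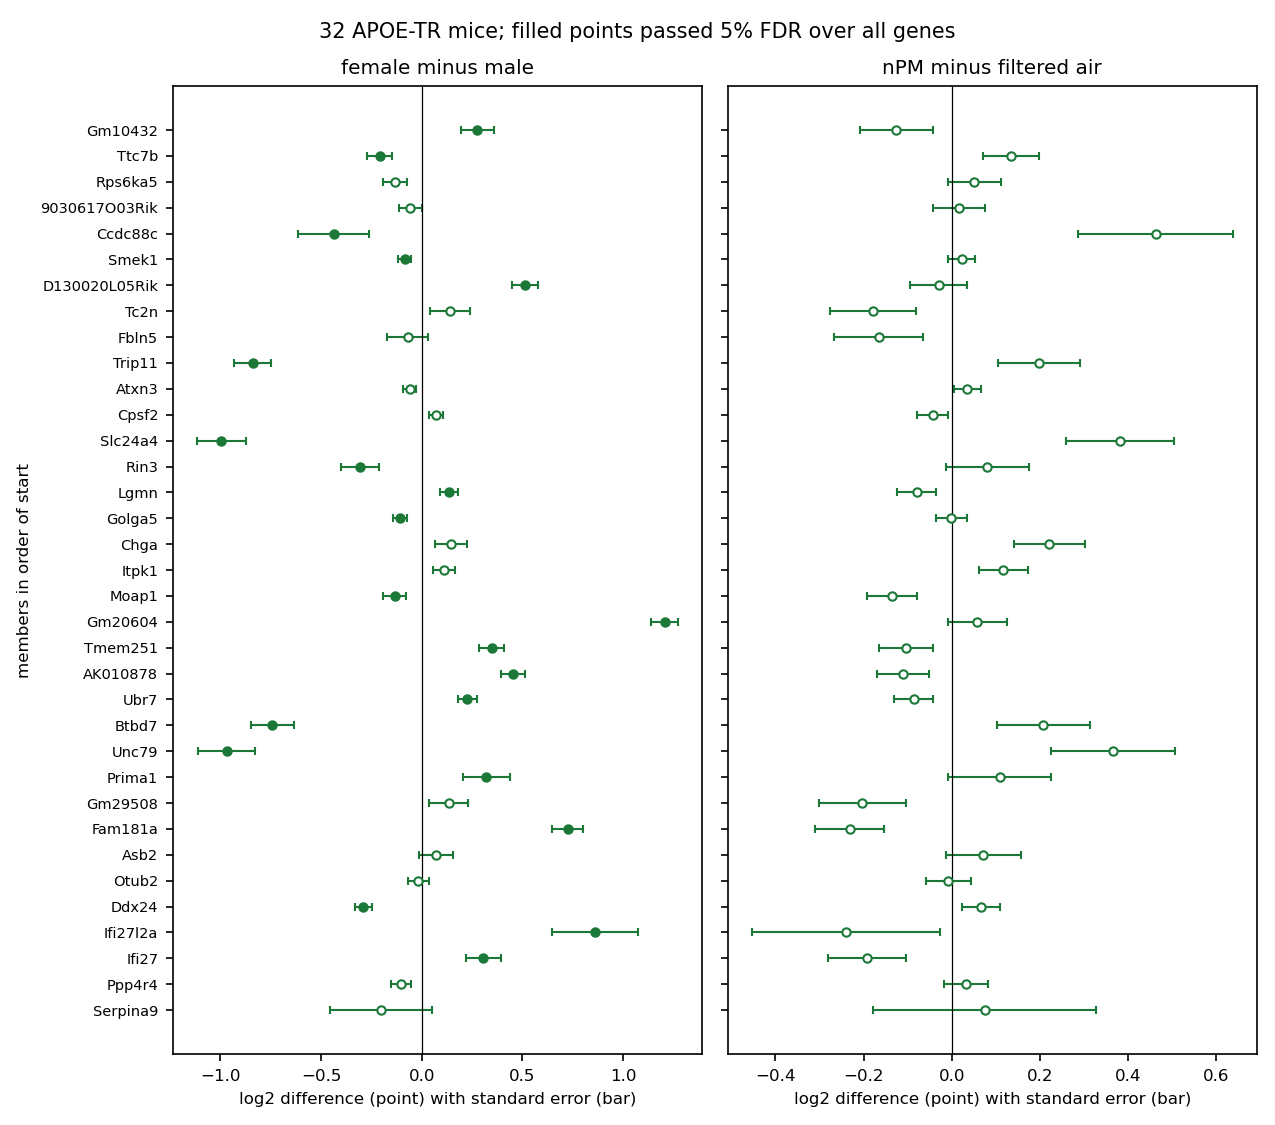
Log2 differences with standard errors (horizontal axes) for female minus male (left) and nPM minus filtered air (right) in the 32 APOE-TR mice, with 35 members in order of start and filled points for those past 5% FDR over all genes. On the left 22 points are filled, from -0.995 for Slc24a4 to 1.21 for Gm20604, and on the right none is.

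The E4 minus E3 difference itself differed by sex for 3 members at 5% FDR in limma, beside 20.5% of all genes, and 41.6% of all genes had an unadjusted p under 0.05. Unc79 had the larger E4 minus E3 difference in females, by 0.86 (SE 0.28, adjusted p = 0.0395 in limma). Gm10432 had the smaller one in females, by -0.47 (SE 0.17, limma adjusted p = 0.0477), and Tmem251 a lower one, by -0.35 (SE 0.12, limma adjusted p = 0.047). Tmem251 was at 8.13, 10.2, 13.8 and 16.3 CPM in E3 females on filtered air and between 6.15 and 10.5 CPM in the other 28 mice. No member passed without the E3 females on filtered air, and no gene of 16146 did. There the term rests on the nPM groups, with an adjusted p of 0.546 for Unc79, 0.555 for Gm10432 and 0.578 for Tmem251 in limma. Leaving out E3 female 61 or 6 alone also left none, and leaving out 52 or 63 gave 12 or 11. The calls over all genes in those fits are not given here, so these counts alone are no result about the members. Calls over all genes also went as low as 0 with each mouse left out, as without E3 male 51.

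In B6 mice 33 members were found by the same symbol and 2 more, 9030617O03Rik and Smek1, under the RefSeq names Dglucy and Ppp4r3a, while AK010878 was not matched. Of these 35, 26 had a read in every B6 mouse. The B6 table was normalized apart from the APOE-TR table and its mice differed in age and exposure. It also listed 27086 rows beside 18943, some genes under other symbols, so levels are set side by side with no test. On one matrix of shared genes rescaled by TMM, B6 was nearer to E3 for 10 of 26 members, beside 51.3% of all shared genes, and on the deposited values for 15 of 26. Between these scalings the median B6 minus E3 difference of all shared genes moved from -0.77 to -0.04, so the place of B6 beside the lines can depend on the scaling.

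Ccdc88c had a median of 13.6 CPM in B6, beside 14.2 in E3 and 19.95 in E4, and rescaled B6 lay 1.07 above E3 and 0.22 above E4. Chga had a median of 90.6 CPM in B6, beside 71.9 and 92.2, and rescaled B6 lay 0.55 above E4. The ranges of both genes overlapped between B6 and both lines. Ifi27 in B6, at 1.45 to 9.47 CPM, lay below every APOE-TR mouse, the lowest of which was at 11.1 CPM. Moap1 in B6, at 0.072 to 15.7 CPM, also lay below every APOE-TR mouse, the lowest of which was at 23.5 CPM, while Gm20604, which overlaps it, was at 6.48 to 34.1 CPM in B6 and 5.46 to 19.6 CPM in APOE-TR mice. Both Ifi27 and Moap1 were lower in B6 under either scaling, by log2 differences from E3 of -1.53 and -2.69 after rescaling. Gm20604, on the same strand as Moap1, lay 1.62 above E3 in B6 after rescaling. Whether reads of these overlapping genes were assigned alike in both tables was not tested. Gm10432, the first member, had no reads in some B6 mice, with values from 0.033 to 4.90 CPM, and all 4 B6 females on nPM were at 0.546 CPM or less.

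**Figure D5:**
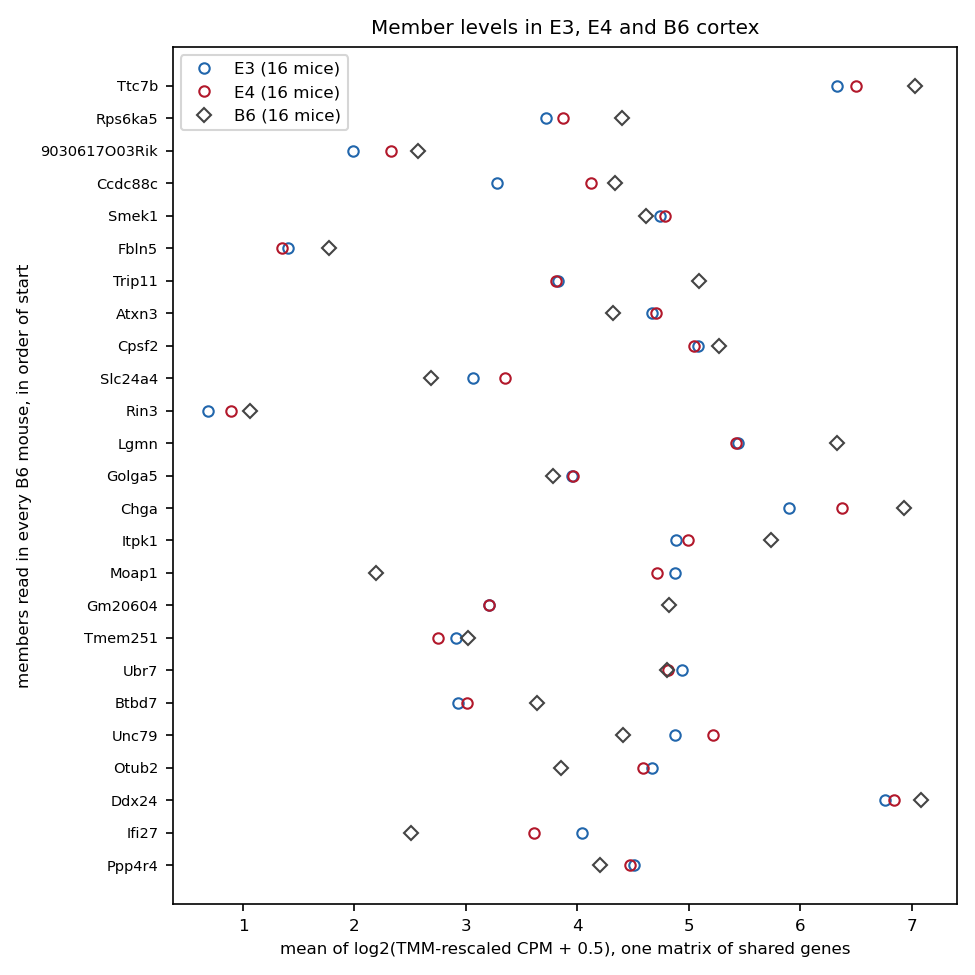
Mean log2(TMM-rescaled CPM + 0.5) over 16 mice each (horizontal axis) of 25 of the 26 members read in every B6 mouse, in order of start (vertical axis), for E3 (blue circles), E4 (red circles) and B6 (diamonds). The circles lie close together for most genes, and B6 lies far below both for Moap1 and Ifi27. It lies farthest above both for Gm20604, which overlaps Moap1, and for Trip11.

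Within B6, no member passed 5% FDR for nPM in limma, and no gene of 13839 did, with 3 members at an unadjusted p under 0.05 beside 849 genes in all. The smallest p was that of Ifi27, at 0.72 (SE 0.28, limma adjusted p = 0.777). For sex 5 of 26 members passed beside 26.9% of all genes. Chga was lower in B6 females by a log2 difference of -0.59 (SE 0.15, limma adjusted p = 0.00688), Itpk1 by -0.62 (SE 0.12, limma adjusted p = 0.00126) and Rin3 by -0.77 (SE 0.25, limma adjusted p = 0.0304). Otub2, a deubiquitinase, was higher in B6 females by 1.02 (SE 0.30, limma adjusted p = 0.0154) and Cpsf2 by 0.62 (SE 0.22, limma adjusted p = 0.0411). Chga in B6 females on filtered air was at 37.2, 48.5, 71.5 and 83.6 CPM and in B6 males at 100.7, 108.6, 112.3 and 137.5, so these groups did not overlap. On nPM, B6 females at 71.6 to 91.7 CPM and males at 77.1 to 106.5 CPM overlapped. In APOE-TR mice the female minus male difference of Chga was 0.15 (SE 0.080, limma adjusted p = 0.116), and the difference between the tables was not tested.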

How the data were processed

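Cerebral cortex RNA was sequenced from single mice (TRUseq Stranded mRNA libraries). Per the study's methods, the authors aligned reads to mm10 with TopHat2 (v2.0.8b), kept uniquely mapped reads and quantified genes in Partek, and the deposited values are CPM. Unique mapping can lower genes with close copies, which may hold for the Serpina3 genes. Low CPM values are whole multiples of the column minimum within 0.1 reads for 96.1% or more of values under about 20 reads in each APOE-TR library, and reads were recovered from this.

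The members and all lists were chosen with earlier results of these data known. In APOE-TR 4 duplicated listings were left out, and in B6 4. Genes above 1.5 times the column minimum in every mouse (15958 in APOE-TR, 13839 in B6) were rescaled by TMM (edgeR 4.0.16) and fitted by limma 3.58.1 with trend on log2(CPM + 0.5), with 8 or 4 group means and Benjamini-Hochberg adjustment over all genes. 1 APOE-TR column carries an animal number (6) found on no sample and entered as an E3 female on filtered air. Named were the 12 members with the largest E4 minus E3 difference, up to 10 with the smallest p for each other comparison, the edge genes with 2 neighbours each, the 3 smallest differences, and the highest and lowest levels. Moap1, Itpk1 and further examples of the role lists were added after their values were seen. 1 member and 1 edge gene are not reported here. Other settings were other scalings, pseudocounts, filters, voom, library weights, DESeq2 1.42.0 and edgeR on recovered reads, each sex alone and each mouse left out. The fit was tested on simulated data (R 4.3.3).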

Additional observations from a re-analysis of the deposited data

Results flagged for a closer look

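Of 144 sets of 4 mice of a group checked over the 12 members with the largest differences, 12 had a mouse far from the other 3, where chance gives about 1 in 20. E4 female 21 on filtered air was such a mouse for 3 members, Ifi27 at 26.99 CPM (others 14.2 to 15.5), Ifi27l2a at 4.197 CPM (others 0.392 to 0.604) and Gm29508 at 0.7214 CPM (others 0.483 to 0.509). E4 male 65 on nPM was at 0.7306 CPM for Gm29508, E3 male 73 on filtered air at 14.79 CPM for Ccdc88c and E3 female 63 on filtered air at 4.249 CPM for 9030617O03Rik. In B6, female 53 on nPM was at 0.5463 CPM for Gm10432 and at 0.241 CPM for Gm29508, male 6 on filtered air at 1.268 CPM for Gm29508 and female 43 on filtered air at 1.603 CPM for 9030617O03Rik. The values of female 53 rest on 4 reads and 1 read, in a library of 4.8 M reads. That of male 6 rests on 4 reads in a library of 2.05 M, so such values follow single reads and depth. B6 male 10 on nPM was at 5.537 CPM for Ifi27 and B6 male 16 on nPM at 19.29 CPM for Unc79.

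The E4 minus E3 difference was unlike between females and males by a limma interaction term for Gm10432 (-0.465, adjusted p = 0.0477), Tmem251 (-0.345, adjusted p = 0.047) and Unc79 (0.865, adjusted p = 0.0395). In that fit 20.5% of all genes passed. Without the E3 females on filtered air none of these members passed, and no gene of 16146 did.

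Serpina3 genes of the segment that missed the filter held reads that differed between the lines, given here as a description with no test. Serpina3m had a mean of 66.81 reads in E4 mice and 0.38 in E3, and Serpina3f of 35.25 and 3.62. Serpina3c had a mean of 5.75 reads in E4 and 0.81 in E3, and Serpina3g of 9 and 6.12. Serpina3h went the other way, with a mean of 52.31 reads in E3 mice (27 to 109) and 5.94 in E4 (0 to 15), as did Serpina3i with 11.56 (4 to 30) and 0.75 (0 to 2). These genes are related copies whose sequences were not compared here. Reads may be split or lost among them, and the assignment of each value to its copy is uncertain.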

How the results depend on the processing

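No paired analysis was possible because the animal numbers name single mice and groups that were compared share at most 1 number. The number of members past 5% FDR moved by over 1.5 times under these settings, and the cause was not tested except that fewer mice were fitted where groups were left out. For E4 minus E3 it was 11, 5 in males only, 6 without the E3 females on filtered air, and 8 to 19 with each mouse left out, the most without E3 female 52 or 63, controls. For nPM it was 0, 9 with library weights and 0 to 12 with each mouse left out (12 without E3 female 52, 4 without 63, 5 without 55 of the nPM group). For allele by nPM it was 0, and 4 with library weights. For allele by sex it was 3, 1 with no filter, 5 with voom, 8 with library weights, 0 without the E3 females on filtered air, and 0 to 12 with each mouse left out, with 0 in 19 of 32. For sex in B6 it was 5, 3 with no filter and 3 to 5 with each mouse left out (3 without female 40 or 41). The calls over all genes moved as well. For E4 minus E3 they fell from 4629 to as low as 2592 with each mouse left out. For allele by sex they fell from 3278 to as low as 0. The share of all genes is not given beside each setting, so these counts alone are no result about the members. Members whose lines did not overlap numbered 6 in females on filtered air. With each mouse left out they numbered 7 to 13 (11 without E4 female 21 and 13 without E3 female 52). In females on nPM they numbered 4 (4 to 6). In males on filtered air they numbered 4 (5 to 8, 8 without E3 male 63). In males on nPM they numbered 5 (6 to 8, 8 without E3 male 53 or 58). Leaving a mouse out can only keep or raise these numbers, and the share over all genes was not counted for these settings. Unc79 turned from 0.37 to -0.063 in males only. The other settings kept these counts within 1.5 times, and without E3 females on filtered air was chosen after seeing the data, as was leaving out the shallowest B6 library. Depth limits genes such as Tc2n and Ifi27l2a, which had 1 and 3 reads in their lowest mouse.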

Other observations

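The Serpina1 cluster, the mouse alpha-1 antitrypsin genes, lies between the Ifi27 genes and Serpina9 and was barely read in cortex. Serpina1b had a read in 16 of 16 E3 mice and in 3 of 16 E4 mice, with means of 2.81 and 0.44 reads. Serpina1c had a read in 13 E3 and 4 E4 mice, with means of 2.56 and 0.62 reads, while Serpina1a had a read in 8 mice of each line, with means of 1.12 and 0.69 reads. Serpina1d had a read in 9 E3 and 4 E4 mice, with means of 0.94 and 0.25 reads, Serpina1e in 7 and 3, with means of 0.88 and 0.25 reads, and Serpina11 in 10 E3 and 1 E4 mice, with means of 1.56 and 0.06 reads. Serpina12 had a read in 15 mice of each line, with means of 2.25 and 2.69 reads. The Serpina1 genes are near-identical copies, so reads may be split or lost among them. These values are under 3 reads on average and are given with no test.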
